A study of Mus musculus with 12 samples.

Results

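Il17a and Il17f, the genes of the cytokines IL-17A and IL-17F, were followed in Th0, Th17, and iTreg cells by RNA-seq, with 4 libraries in each group and 12 in all. Both genes were chosen by name. The table that compares Th17 with Th0 cells lists 11077 genes and holds both of them, whereas the table that compares iTreg with Th0 cells lists 11056 genes and holds Il17f only. All cells came from naive CD4+CD62L+ splenic T cells of C57BL/6 mice aged 8 to 10 weeks, were activated with anti-CD3 and anti-CD28 at 1 µg/ml each, and were collected after 3 days. Th0 cells were given no polarizing cytokine. Th17 cells were also given IL6 at 30 ng/ml, TGFb1 at 5 ng/ml, and neutralizing anti-IL4 and anti-IFNγ at 10 µg/ml each. iTreg cells were also given IL2 at 10 ng/ml and TGFb1, which the sample labels put at 10 ng/ml and the study's methods at another dose. The neutralizing antibodies were part of the Th17 condition only, so their part in a Th17 value cannot be told apart from that of the cytokines. The cells are an in vitro model, from 4 independent cultures per group, with no number of mice per culture stated. The sample labels give 4 experiments, each with a library of every group. The column headings carry no experiment number, so the main tests here were not paired. Libraries are named by their column headings, which begin with M22, M29, M42, or M43 in every group and end in _1 for Th0, _5 for Th17, and _4 for iTreg.

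IL-17A and IL-17F are related secreted cytokines that form homodimers and a shared heterodimer. They act through a receptor of the IL-17RA and IL-17RC chains on epithelial cells, fibroblasts, and other tissue cells, which answer with chemokines that recruit neutrophils and with antimicrobial peptides. In CD4+ T cells both genes are switched on when IL6 activates STAT3 and TGFβ acts at the same time. IL-17-producing T cells protect against fungi and extracellular bacteria and take part in autoimmune inflammation.

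The genes are neighbours on mouse chromosome 1 (GRCm38, the build called mm10) and point towards each other. Il17a (ENSMUSG00000025929.4) lies on the plus strand at chr1:20730905-20734496 and has 1 annotated transcript, with 3 exons and 1171 bases. Il17f (ENSMUSG00000041872.9) lies on the minus strand at chr1:20777146-20790617. Of its 4 annotated transcripts, Il17f-201 has 3 exons and 1178 bases at chr1:20777146-20784270. The 3′ ends of the genes are 42649 bases apart. No exon of either gene is overlapped by another annotated gene. The Il17a transcript and Il17f-201 share 0 runs of 20 bases in the direction of transcription, so neither overlap nor such a run could mix their reads. Runs shared with the opposite strand or with the other Il17f transcripts were not examined.

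Since both genes were higher in Th17 than in Th0 cells, the 250 bases before each start site are shown, from the RefSeq promoter windows of GRCm38.p6, 5′ to 3′ on the strand of the gene. Il17a is read from chr1:20730655-20730904 and Il17f from chr1:20784271-20784520. Capitals mark matches, on either strand, to the core letters of sites known for transcription factors of T cells and for the TATA box. For nuclear receptors these were AGGTCA and the variant GGGTCA, for STAT proteins TTCNNNGAA, for the AP-1 family TGANTCA, for RUNX factors TGTGGT, for NFAT proteins GGAAA, and for the TATA box TATAAA.
Il17a: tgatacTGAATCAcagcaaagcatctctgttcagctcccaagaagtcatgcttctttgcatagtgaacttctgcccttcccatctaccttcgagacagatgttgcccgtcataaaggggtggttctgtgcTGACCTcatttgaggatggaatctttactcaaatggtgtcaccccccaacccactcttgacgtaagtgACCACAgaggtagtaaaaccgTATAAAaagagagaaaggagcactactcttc
Il17f: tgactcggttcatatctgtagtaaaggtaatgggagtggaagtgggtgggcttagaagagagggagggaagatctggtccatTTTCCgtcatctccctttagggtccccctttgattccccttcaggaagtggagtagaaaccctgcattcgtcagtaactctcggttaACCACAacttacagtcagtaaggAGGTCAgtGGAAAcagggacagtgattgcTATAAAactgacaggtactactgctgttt

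Counted back from the start site, both windows held TATAAA close to the start, at -31 to -26 for Il17a and at -29 to -24 for Il17f. TATAAA was found in 12.4% of the 32851 windows of all genes. Each also held 1 match to AGGTCA, found in 14% of all windows, at -120 to -115 on the opposite strand for Il17a and at -58 to -53 for Il17f. Both held TGTGGT on the opposite strand, at -52 to -47 for Il17a and at -81 to -76 for Il17f, a motif found in 14% of all windows. TGANTCA was found in the Il17a window only, at -244 to -238, and in 6.75% of all windows. GGAAA was found in the Il17f window only, at -168 to -164 on the opposite strand and at -50 to -46, and in 55.6% of all windows. Neither window held GGGTCA (11.6% of all windows) or TTCNNNGAA (7.02%). No match overlapped another, and a match is a run of letters and not a shown binding site.

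Levels are FPKM, the fragments of a gene scaled to its transcript length and to the size of the library, so the genes can be compared with each other. Once the annotated transcript lengths were applied, the FPKM of Il17a corresponded to a whole number of fragments in every library, within 0.05 fragments. The same held for Il17f in the Th0 libraries and in M22_4, M29_4, and M42_4. Il17f counts in the Th17 libraries and in M43_4 were too large to be checked at the digits kept, and were rounded. The scaled library sizes, recovered from low values of other genes, were 7.49 to 10.9 M fragments. In the libraries of the Th17 table, 1 fragment of Il17a was worth 0.0886 to 0.114 FPKM. Markers of CD4+ T cells were present in all libraries, with all 6 of Cd3e, Cd3d, Cd3g, Cd4, Cd5, and Cd28 listed and a summed level of 713 to 2030 FPKM. IL-17 can also come from gamma-delta T cells and innate lymphoid cells. None of the 4 gamma-delta markers (Trdc, Sox13, Tcrg-C1, Blk) and none of the 4 markers of NK or innate lymphoid cells (Ncr1, Klrb1c, Klrd1, Eomes) had a row in either table. A missing row gives no level. Either the gene did not pass the authors' filter on low counts, or their annotation, which is not given, lacks the symbol. Whether a few such cells were present was not tested. Of the other lineages, only Cd8b1 (CD8 T cells), Cd79a (B cells), and, in the Th17 table, Itgam (myeloid cells) were listed. Cd8b1 was at 2.19 to 6.60 FPKM, Cd79a at 0.505 to 3.84, and Itgam at 0.0457 to 0.628, each with overlapping ranges in the groups.

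Il17a was almost absent from Th0 cells. It was at 0.114 FPKM in M22_1 and at 0 in M29_1, M42_1, and M43_1, which is 1 fragment and 3 times 0. A count of 0 allows up to 3 fragments, or 0.274 to 0.326 FPKM in these libraries. In Th17 cells Il17a was at 22.9 FPKM in M22_5, 7.27 in M29_5, 65.2 in M42_5, and 21.2 in M43_5. M42_5 was far above and M29_5 far below the other Th17 libraries, and the lowest Th17 level was 63.8 times the highest Th0 level. The Th17 mean was 29.1 ± 25.0 FPKM (SD, n = 4), against a Th0 mean of 0.0285 ± 0.0570 FPKM (SD, n = 4).

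Il17f was a far more abundant transcript. In Th0 cells it was at 0.113 FPKM in M22_1, 0.108 in M29_1, 0.184 in M42_1, and 0.0909 in M43_1, that is 1 fragment in 3 libraries and 2 in M42_1. In Th17 cells it was at 492 FPKM in M22_5, 281 in M29_5, 788 in M42_5, and 366 in M43_5. The Th0 libraries were all within a few fragments of 0, and the lowest Th17 library was 1530 times the highest Th0 library. The Th17 mean was 482 ± 222 FPKM (SD, n = 4), against a Th0 mean of 0.124 ± 0.0408 FPKM (SD, n = 4). By level, Il17f ranked 97 to 159 among the 11077 listed genes in the Th17 libraries, while Il17a ranked between 1114 (M42_5) and 7150 (M29_5).

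**Figure D1:**
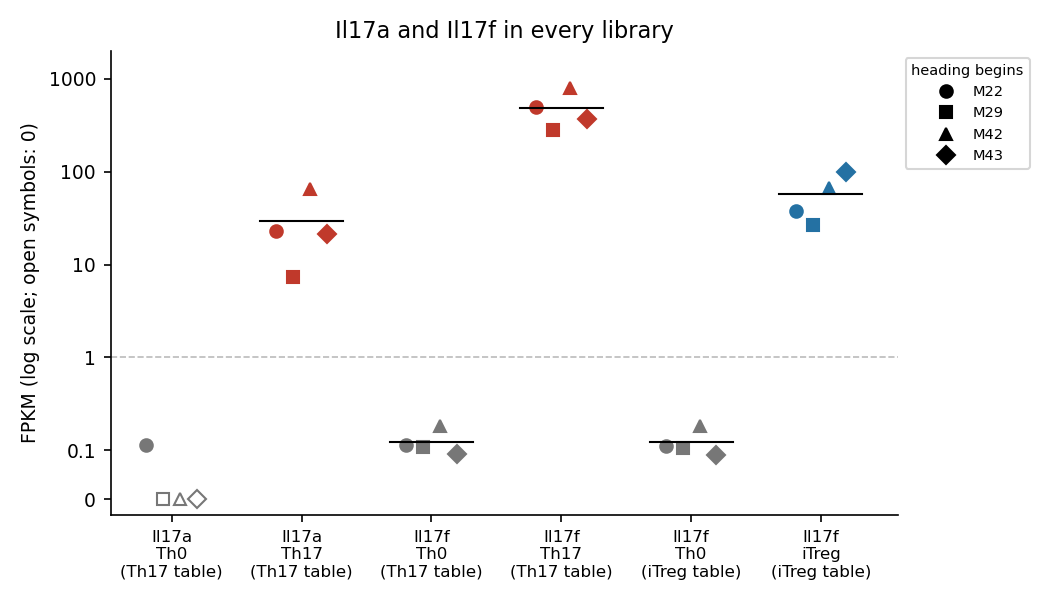
FPKM of Il17a and Il17f (vertical axis, log scale, open symbols at 0) in every library of each group and table, where the symbol gives the beginning of the heading, bars are means of 4 libraries (none is drawn for Il17a in Th0 cells, which holds zeros), and the dashed line is 1 FPKM, the filter of the test. Th0 libraries sit at or below 0.184 FPKM, Th17 libraries at 7.27 to 65.2 for Il17a and at 281 to 788 for Il17f, and iTreg libraries at 26.9 to 99.2 for Il17f.

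The comparison of Th17 with Th0 cells asked how much the polarizing condition changed these transcripts beyond activation alone. Both genes were higher, with a log2 fold change on the log2(FPKM + 1) scale of 8.64 (SE 0.28, adjusted p = 8.4e-07) for Il17f and 4.50 (SE 0.51, adjusted p = 4.4e-04) for Il17a, by limma with Benjamini-Hochberg adjustment over 10269 tested genes. Of all genes tested, 10.6% were called higher in Th17 cells and 8.69% lower (19.3% in either direction), and 13.2% had every Th17 library above every Th0 library, as both genes did. The number called higher was 1091, or 1970 with the heading beginnings as a replicate block. The change of Il17f ranked 1 and that of Il17a ranked 12 among all tested genes, whose median log2 fold change was -0.00071. Both passed the filter of more than 1 FPKM in at least 4 libraries through the 4 Th17 libraries alone, so the genes had to differ once they were tested. The exact two-sided permutation test of 4 libraries against 4 gave p = 0.029 for each gene, the smallest that the 70 arrangements allow. In whole-cell RNA, more cells that transcribe a gene and more RNA per cell cannot be told apart.

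The size of these changes rests on very few Th0 fragments. For Il17a the 4 Th17 libraries held 1193 fragments and the 4 Th0 libraries 1, a ratio of 1140 at equal depth with an exact 95% interval of 204 to 45000. For Il17f they held 19940 and 5 fragments, a ratio of 3800 with an interval of 1630 to 11700. The intervals cover counting error only, and they overlap. With a pseudocount of 0.1 FPKM in place of 1, the log2 fold change of Il17a was 7.51 and that of Il17f 10.98.

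On the log2(FPKM + 1) scale the change of Il17f exceeded that of Il17a by 4.14 (exact two-sided permutation test of the difference between the genes, 4 Th17 against 4 Th0 libraries, p = 0.029, the smallest possible). This test and those of the single genes do not pair the libraries, and sign flips within the 4 pairs with like headings allow no p below 0.12. The difference between Il17f and Il17a was 4.27 ± 0.637 (SD, n = 4) in Th17 and 0.129 ± 0.10 (SD, n = 4) in Th0 libraries. In Th0 cells both genes lay so near 0 that this value follows their Th17 levels. Whether the fold changes themselves differ was not detectable at this depth.

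Within Th17 cells Il17f was above Il17a in 4 of 4 libraries. The ratio of the FPKM of Il17f to that of Il17a was 21.5 in M22_5, with an exact 95% counting interval of 18.7 to 24.7. It was 38.7 in M29_5 (31.1 to 48.8), 12.1 in M42_5 (11.2 to 13.1), and 17.3 in M43_5 (15.1 to 19.9). The ratio was thus highest where both genes were lowest and lowest where both were highest, and between these libraries the intervals did not overlap. The middle libraries did not follow this, as M22_5 had the higher FPKM of both genes than M43_5 and also the higher ratio. Their intervals overlapped. Il17a is the divisor of the ratio, so its wider spread enters the ratio directly. An exact sign-flip test of the log2 difference gave p = 0.12, the smallest that 4 libraries allow, so this design cannot pass 0.05. The mean ratio was 22.4 ± 11.5 (SD, n = 4), and Il17a made up 2.52% to 7.64% of the summed FPKM of the pair.

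**Figure D2:**
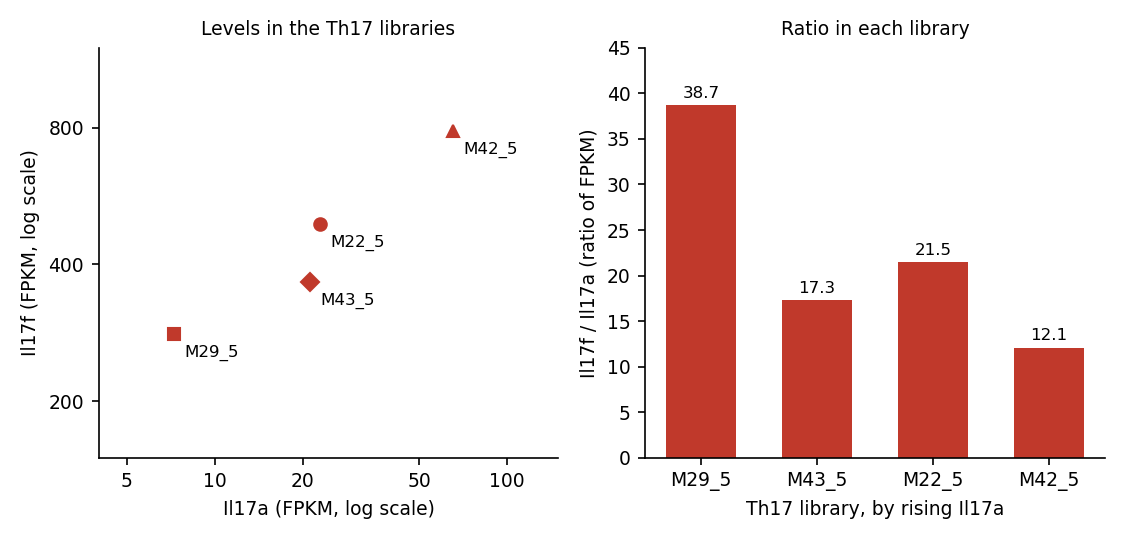
Left, FPKM of Il17f against FPKM of Il17a (both log scales) in the 4 Th17 libraries, a point per library. Right, the ratio of Il17f to Il17a in each Th17 library, ordered by rising Il17a, which was 38.7 in the library with the least Il17a (M29_5) and 12.1 in the library with the most (M42_5).

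Both genes put the Th17 libraries in the same order, M42_5, M22_5, M43_5, and M29_5 from high to low. For Il17a the middle places are not resolved, as M22_5 and M43_5 held 219 and 223 fragments, at 22.9 and 21.2 FPKM. The highest Il17a level was 8.96 times the lowest, against 2.80 times for Il17f. On the log2(FPKM + 1) scale the SD over the Th17 libraries was 1.23 for Il17a and 0.636 for Il17f, where the median of all tested genes was 0.217. Only 36 of the 10269 tested genes had a larger SD than Il17a and 554 a larger SD than Il17f. Without M42_5 the log2 fold change was 3.99 for Il17a and 8.37 for Il17f, and both calls held, as they had to.

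**Figure D3:**
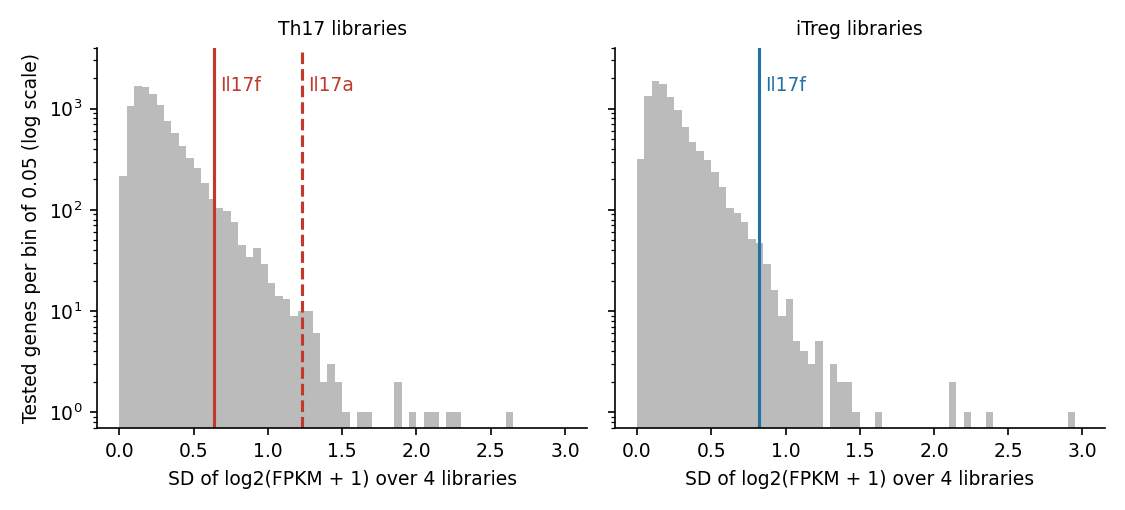
Number of tested genes (log scale) by the SD of log2(FPKM + 1) over the 4 Th17 libraries (left) and the 4 iTreg libraries (right), in bins of 0.05, with vertical lines at the SD of Il17a and Il17f. Il17a (1.23) and Il17f (0.636 in Th17, 0.821 in iTreg libraries) lie to the right of the bulk of genes.

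Il17f was also transcribed in iTreg cells. In the iTreg table it was at 0.112 FPKM in M22_1, 0.107 in M29_1, 0.181 in M42_1, and 0.0898 in M43_1 of the Th0 libraries. In iTreg libraries it was at 37.8 FPKM in M22_4, 26.9 in M29_4, 66.4 in M42_4, and 99.2 in M43_4. The groups did not overlap, the lowest iTreg library being 148 times the highest Th0 library, and the order of the iTreg libraries differed from that of the Th17 libraries, with M43_4 at the top. The iTreg mean was 57.6 ± 32.4 FPKM (SD, n = 4), against a Th0 mean of 0.123 ± 0.0403 FPKM (SD, n = 4).

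The log2 fold change of Il17f between iTreg and Th0 cells was 5.53 (SE 0.35, adjusted p = 3.3e-05 by limma with Benjamini-Hochberg adjustment over 10208 tested genes), rank 2 of all tested genes. Here 8.36% of tested genes were called higher and 8.21% lower, and 11.7% had every iTreg library above every Th0 library. The number called higher was 853, or 2131 with the replicate block. As before, the gene passed the filter through the polarized libraries alone. The fragments were 2550 in iTreg and 5 in Th0 libraries, a ratio of 451 with an exact 95% counting interval of 193 to 1390, and with a pseudocount of 0.1 FPKM the log2 fold change was 7.86. The exact two-sided permutation p was 0.029. The SD over iTreg libraries was 0.821 on the log2 scale, and 123 of the tested genes had a larger SD.

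For Il17a there is no value in iTreg cells, because the iTreg table has no row for it. The authors removed genes without more than 1 CPM (count scaled to library size) in at least 4 samples before deposit, and 1 CPM of Il17a corresponds to 0.854 FPKM. Given that filter, no more than 3 of the 4 iTreg libraries exceeded this level, as the Th0 libraries were below it. The lowest Il17a level in Th17 cells was 7.27 FPKM. The ratio of Il17f to Il17a in iTreg cells was therefore not calculated.

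Across the groups Il17f was highest in Th17, lower in iTreg, and lowest in Th0 cells. The values of the Th17 and iTreg libraries come from tables that the authors scaled separately, and were not tested against each other, but the scaling of the shared Th0 libraries differed by a factor of 1.009 to 1.012 only. The lowest Th17 library was 2.84 times the highest iTreg library, and the mean was 8.37 times higher. For libraries whose headings begin alike, the Th17 level was 13 times the iTreg level for M22, 10.5 times for M29, 11.9 times for M42, and 3.69 times for M43. The M43 pair stood apart, with the highest iTreg level and the second lowest Th17 level. For Il17a the order was Th17 above Th0 cells, with no overlap.

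Of the 6 IL-17 family ligands, only Il17a and Il17f were listed. Il17b, Il17c, Il17d, and Il25 had no row in either table. Of the 6 receptor chains and adaptor genes, Il17ra and Traf3ip2 were listed, whereas Il17rc, Il17rb, Il17rd, and Il17re were not. Il17ra, the receptor chain shared by the family, was at 31.4 to 127 FPKM in Th17 and 10.7 to 37.5 in Th0 libraries. The log2 fold change was 1.56 (SE 0.50, adjusted p = 0.059), which missed the threshold. It passed with the replicate block (adjusted p = 0.0012) and without M42_5 (adjusted p = 0.012). The M42 library was the lowest of its group in all groups, at 10.7 FPKM in Th0, 31.4 in Th17, and 13.7 in iTreg cells. In iTreg cells the log2 fold change of Il17ra was 0.20 (adjusted p = 0.82). Traf3ip2, which encodes the adaptor Act1, fell by 0.36 on the log2 scale in Th17 cells (adjusted p = 0.049), a call lost when M22_1, M42_1, M43_1, M22_5, M29_5, or M43_5 was left out (adjusted p 0.072 to 0.13). In iTreg cells its log2 fold change was -0.30 (adjusted p = 0.070, but 0.024 with the replicate block and 0.040 without M29_1).

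Receptors of the cytokines that induce or maintain IL-17 were next examined. In Th17 cells 4 of 9 tested genes were higher and 0 lower, with a median log2 fold change of 0.86, where 10.6% of all tested genes were called higher and 8.69% lower. With 1 library left out, 3 to 6 of the 9 were called higher. With the replicate block 6 of the 9 were called in either direction, against 37.8% of all tested genes. Il1r1, the signalling receptor of IL-1, was at 6.55 to 21.3 FPKM in Th17 against at most 0.152 in Th0 libraries (log2 fold change 3.67, adjusted p = 6.7e-05). Il23r, the specific chain of the IL-23 receptor, was at 1.60 to 3.30 FPKM against at most 0.205 (1.64, adjusted p = 4.1e-04). Both were under 1 FPKM in every Th0 library and passed the filter through the Th17 libraries alone, so they too had to differ once tested. Neither had a row in the iTreg table. Tgfbr1, a TGFβ receptor kinase, was higher in both, with a log2 fold change of 2.48 in Th17 (adjusted p = 2.3e-04) and 3.05 in iTreg cells (adjusted p = 5.6e-05). In iTreg cells it was the only gene called of 7 tested (2 were higher without M42_4), with a list median of 0.19, and 16.6% of all tested genes were called in either direction. With the block 4 of the 7 were called, 2 of them lower, against 40.9% of all tested genes.

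Of 10 transcription factors listed as promoting Il17a and Il17f transcription, 8 were higher and 1 lower in Th17 cells, with a median log2 fold change of 1.53, where 10.6% of all tested genes were called higher. In iTreg cells 5 were higher and 1 lower, with a median of 0.55, where the share over all tested genes was 8.36%. The lowered gene was Nfkbiz in Th17 and Hif1a in iTreg cells, which are named here after their values were seen. Hif1a was at 67.6 to 84.4 FPKM in iTreg against 88.1 to 134 in Th0 libraries (log2 fold change -0.55, adjusted p = 0.030). That call was lost without M29_1, M42_1, M43_1, M22_4, M29_4, or M42_4. In Th17 cells Hif1a was higher, at 159 to 267 FPKM against 89.2 to 136 (0.90, adjusted p = 0.011). With the block Nfkbiz was lower in iTreg cells too (-0.42, adjusted p = 0.032), so that 2 were lower there. Both comparisons use the same Th0 cells, so their counts are not independent.

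Several factors of this list were raised more in Th17 than in iTreg cells by their values side by side, a difference that was not tested. Ahr, a ligand-activated factor, was at 56.1 to 82.7 FPKM in Th17 and 7.63 to 12.0 in iTreg against 0.799 to 1.99 in Th0 libraries, with log2 fold changes of 4.86 (adjusted p = 1.7e-06) and 2.17 (adjusted p = 1.6e-04). Maf, which encodes c-Maf, had the largest change among the factors called, 5.46 (adjusted p = 7.0e-05) in Th17 and 4.18 (adjusted p = 4.1e-04) in iTreg cells. Rora, which encodes a nuclear receptor, changed by 3.25 (adjusted p = 1.5e-05) and 1.43 (adjusted p = 2.3e-04), and Stat3, the transducer of IL6, by 1.62 (adjusted p = 1.1e-05) and 0.65 (adjusted p = 0.0011). Batf, an AP-1 family factor, was at 85.6 to 188 FPKM in Th17 against 25.0 to 39.1 in Th0 libraries (2.26, adjusted p = 4.1e-04), and at 26.7 to 35.2 in iTreg libraries (0.09, adjusted p = 0.75). Irf4, its partner, was at over 100 FPKM in every library, with log2 fold changes of 0.28 (adjusted p = 0.34, and 0.030 with the replicate block) and 0.25 (adjusted p = 0.39).

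Among 9 tested factors that oppose transcription of the pair, 5 were higher and 1 lower in Th17 cells (median 0.70), where 10.6% of all tested genes were called higher and 8.69% lower. Among 8 tested in iTreg cells, 5 were higher and 1 lower (median 1.05), where the shares over all tested genes were 8.36% and 8.21%. Gfi1, a repressor, was the lowered gene in both, with log2 fold changes of -1.30 (adjusted p = 0.0013) in Th17 and -2.13 (adjusted p = 0.0011) in iTreg cells. Socs3, the feedback inhibitor of STAT3 signalling, changed by 4.12 (adjusted p = 3.4e-05) and 1.07 (adjusted p = 6.3e-04). Its Th17 libraries were at 52.5 to 55.7 FPKM except M43_5, at 131.

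Foxp3, the defining factor of regulatory T cells, was at 62.0 to 91.7 FPKM in iTreg and 2.01 to 7.15 in Th0 libraries of that table (log2 fold change 3.81, adjusted p = 1.3e-04). In Th17 libraries it was at 0.499 FPKM in M22_5, 0.502 in M29_5, 4.50 in M42_5, and 42.5 in M43_5. The library M43_5 thus stood apart, with Foxp3 between the other Th17 libraries and the iTreg libraries, and Il17f at 366 FPKM, within the range of its group. The log2 fold change of Foxp3 in Th17 cells was -0.17 (SE 0.99, adjusted p = 0.93), and -1.23 without M43_5 (adjusted p = 0.18). Without that library the log2 fold change of Il17f was 8.74 and that of Il17a 4.52, so both were as large as with it. The Treg markers Foxp3, Ikzf4, and Itgae summed to 17.6 to 72.7 FPKM in Th17, 86.1 to 150 in iTreg, and 5.83 to 14.8 in Th0 libraries. Their part in the Il17f values was not tested.

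**Figure D4:**
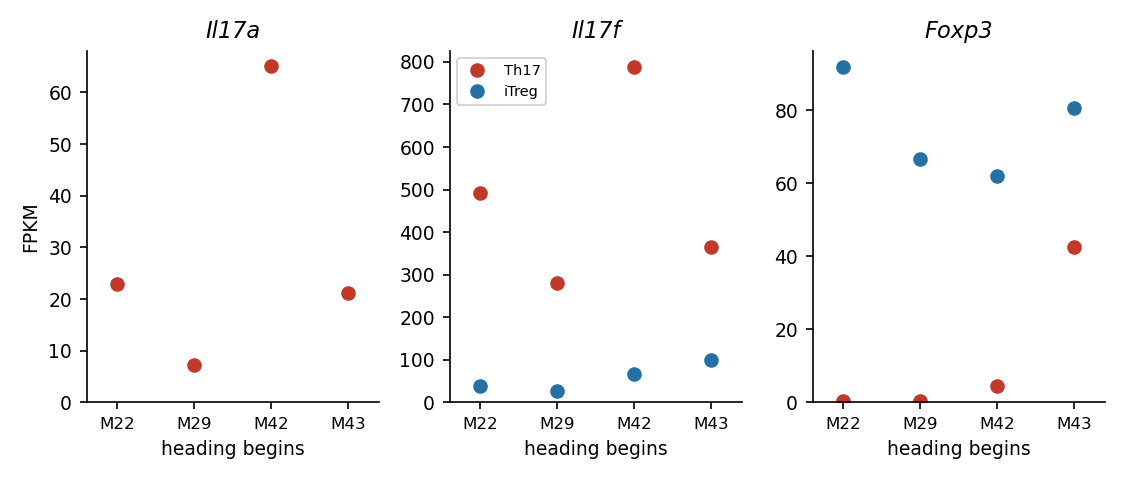
FPKM (linear axes from 0) of Il17a, Il17f, and Foxp3 in the Th17 and iTreg libraries, by the beginning of the heading, with a point per library and no value for Il17a in iTreg cells. The M43 Th17 library had the highest Foxp3 (42.5) of its group, while the M42 library was highest for Il17a (65.2) and Il17f (788).

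Of 9 tested genes for RNA-binding proteins that act on Il17a or other cytokine mRNA, 3 were higher and 0 lower in Th17 cells (median 0.26), and 2 were higher and 1 lower in iTreg cells (median -0.06). Of all tested genes, 10.6% were called higher and 8.69% lower in Th17 cells, and 8.36% and 8.21% in iTreg cells. Without M22_1, M43_1, or M29_5 the higher count in Th17 cells was 2. Without M42_1, M43_1, or M42_4 the higher count in iTreg cells was 1, and with the block the lower count there was 2. Arid5a, which protects cytokine mRNA from decay, was higher in both, by 1.22 (adjusted p = 5.1e-04) and 0.67 (adjusted p = 0.0024). Zc3h12d, a relative of the mRNA-degrading regnase Zc3h12a, was at 73.1, 94.0, 82.2, and 77.0 FPKM in the Th0 libraries M22_1, M29_1, M42_1, and M43_1 of the Th17 table and at 107 to 138 in Th17 libraries. In iTreg libraries it was at 33.0 to 39.3 FPKM. It was thus above Th0 in every Th17 library and below Th0 in every iTreg library, with log2 fold changes of 0.57 (adjusted p = 0.013) and -1.12 (adjusted p = 2.8e-04).

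Of 10 other effector cytokines of T helper cells, 4 were tested in each table. In Th17 cells 2 were higher and 1 lower, where 10.6% and 8.69% of all tested genes were called. In iTreg cells 2 were higher and 1 lower, where the shares were 8.36% and 8.21%. Il10, Ccl20, and Il2 are named here after their values were seen. Il10 was higher in Th17 cells (log2 fold change 3.90, limma adjusted p = 4.3e-04). Ccl20 was higher in iTreg cells, at 7.95 to 60.2 FPKM (2.92, adjusted p = 0.010). It was not called in Th17 cells, at 0.906 to 8.17 FPKM (0.44, adjusted p = 0.59). Il2 was lower in both (-2.88, adjusted p = 3.0e-04 in Th17, and -3.47, adjusted p = 3.5e-04 in iTreg cells). Il21, a cytokine that sustains Th17 cells, was at 65.9 FPKM in M22_5, 66.0 in M29_5, 94.1 in M42_5, and 70.4 in M43_5, against at most 0.136 in Th0 libraries (log2 fold change 6.07, adjusted p = 8.2e-08). It passed the filter through the Th17 libraries alone and had to differ once tested. Its Th17 spread was far smaller than that of Il17a, and it had no row in the iTreg table. Il9 was at 14 to 74.6 FPKM in iTreg cells, with 3 of 4 Th0 libraries at 0 and M43_1 at 0.790 (log2 fold change 5.24, adjusted p = 2.2e-04). It passed the filter through the iTreg libraries alone, so that it had to differ once tested, and it had no row in the Th17 table. Il22, a cytokine often made together with IL-17, had no row in either table.

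**Figure D5:**
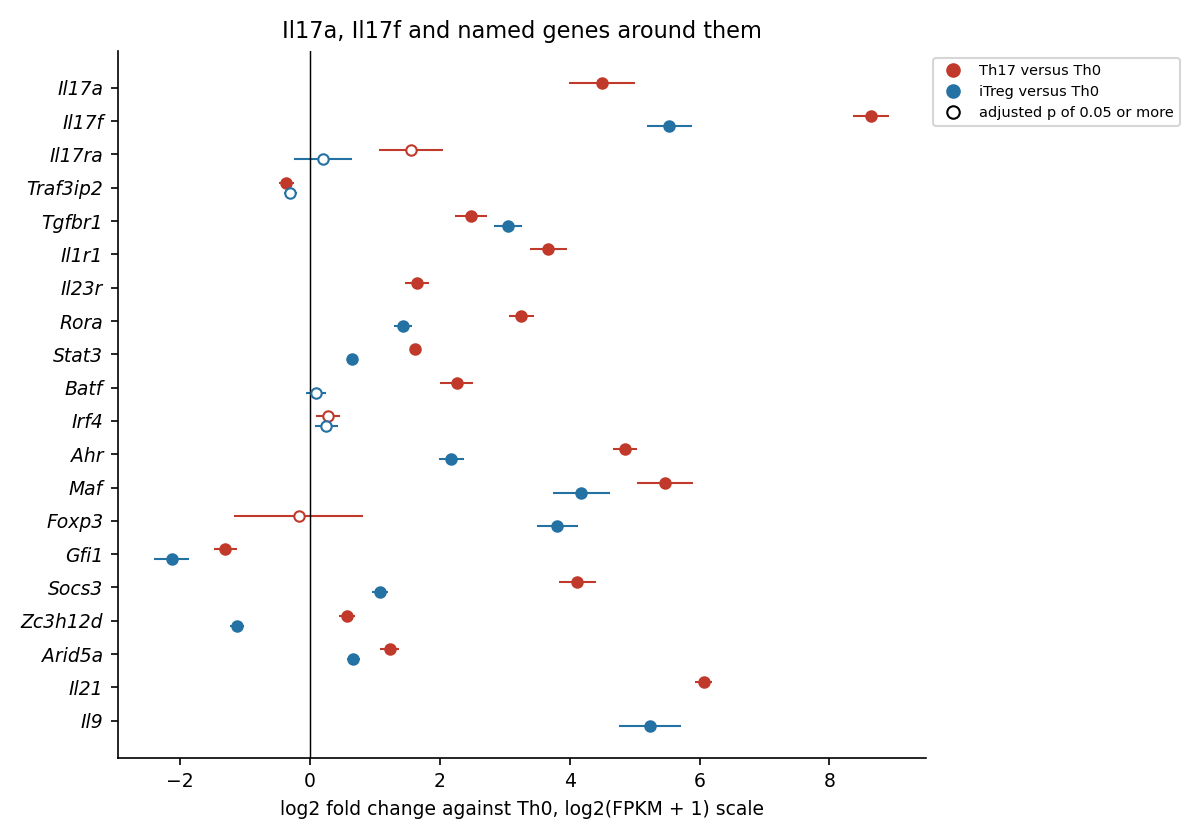
Log2 fold change against Th0 cells on the log2(FPKM + 1) scale, with SE (limma, 4 libraries per group). Shown are Il17a, Il17f, and the genes named by rule from the lists, for Th17 cells (red) and iTreg cells (blue). Filled points have an adjusted p under 0.05. Il17f has the rightmost points of both colours, at 8.64 and 5.53, and Il17a, Il1r1, Il23r, and Il21 have a Th17 point only.

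Few neighbours of the pair were listed. Within 500 kb lie 25 other annotated genes, 7 of them protein-coding, and 4 had a row in each table. Paqr8, a membrane progestin receptor gene, was at 0.489 to 0.816 FPKM in Th0 and 3.59 to 9.43 in Th17 libraries, and at 1.21 to 3.01 in iTreg libraries. It was higher in both comparisons, with log2 fold changes of 2.14 (adjusted p = 3.2e-04) and 0.81 (adjusted p = 0.016). As all its Th0 libraries were under 1 FPKM, it entered both tests through the polarized libraries alone and had to differ. Mcm3, a subunit of the replication helicase and the nearest listed neighbour, had a log2 fold change of -0.55 in Th17 cells (adjusted p = 0.15, but 0.037 with the replicate block and 0.0090 without M42_5) and -0.72 in iTreg cells (adjusted p = 0.031). The latter call was lost without M22_1, M42_1, M43_1, or M22_4 (adjusted p 0.067 to 0.085). Tram2 had log2 fold changes of 0.05 (adjusted p = 0.92) and -0.66 (adjusted p = 0.084, but 0.0017 with the block and 0.037 without M42_1), and Tmem14a was too low to be tested.

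Genes whose pattern over the 8 libraries of the Th17 table was most like that of each member were found by the root mean square difference of log2(FPKM + 1), after centring each gene on its mean. For Il17a these were Ctla2b (0.455), Ctla2a (0.526), Fam129b (0.532), Serpinb1a (0.557), and Gpr15 (0.691). Ctla2b, the closest, was at 10.4 to 44.0 FPKM in Th17 libraries with a Th0 mean of 0.358. Ctla2a and Ctla2b are close copies, so their fragments may have been split between them. For Il17f these were Il21 (1.32), Aqp3 (1.72), Maf (1.76), Pltp (1.86), and Ahr (1.93), all at a greater distance, and no other tested gene had as large a log2 fold change as Il17f. The pair differed by 2.11 on this measure, which made Il17a the ninth closest gene to Il17f, while Il17f ranked 1015 for Il17a. The measure does not scale genes to a like size of change, so it also counts the larger step of Il17f. The ranks thus do not show whether the pair varied together, which was not tested. Among the Th17 libraries both genes were highest in M42_5 and lowest in M29_5.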

How the data were processed

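RNA-seq libraries of Th0, Th17, and iTreg cells (4 each) were grouped by their labels. The authors mapped reads to mm10 with TopHat2 2.0.14, counted them on exons with HTSeq without strand, removed genes without more than 1 CPM in at least 4 samples, and tested with edgeR in a pair-wise design. They deposited 2 tables with FPKM for 8 libraries each, scaled separately, beside their own fold changes and p-values, which were not used. Neither the annotation nor the FPKM calculation is given in the sources used here. Among genes with a single annotated transcript, 98.9% (Th17 table) and 98.7% (iTreg table) were over 1 CPM in at least 4 libraries.

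Within each table, limma 3.58.1 (R 4.3.3, no trend or robust option, FDR 0.05) was run on log2(FPKM + 1) of the genes that exceeded 1 FPKM in 4 or more of the 8 libraries. The pseudocount makes fold changes understate those of low genes. Exact permutation tests, intervals (exact Clopper-Pearson or the exact binomial for a ratio, counting error only), and tallies used Python 3.11.15 with scipy 1.17.1. Columns carry a group but no experiment number. Their beginnings served as a replicate block, in an alternative only, as the sources do not say what they mark. Libraries sharing a beginning deviated together (correlation over genes 0.450 to 0.784 for Th17 and Th0, 0.662 to 0.769 for iTreg and Th0), others at -0.590 to 0.434 and -0.576 to 0.248. Fragments were recovered from FPKM and GENCODE lengths. Low values came out whole (within 0.05) in 94.9% of cases in polarized libraries. No count test was run on them. The limma step was tested on simulated data.

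The members and gene lists were chosen with earlier results of these data known. Named were set genes of the lists, the most changed called member of each list and comparison, listed neighbours within 500 kb, and the 5 genes of most similar pattern. A single gene of the lists is not reported here and was taken out of their counts. Promoter windows are from RefSeq (GRCm38.p6), and both genes matched by symbol. Other settings were pseudocounts of 0.1 and 0.5, no filter, limma's trend and robust options, median-of-ratios scaling, an FDR of 0.01, and each library left out.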

Additional observations from a re-analysis of the deposited data

Results flagged for a closer look

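Of 64 sets of 4 libraries examined for the members and named genes, 8 held a library far from the others (its gap to the next, as a share of the range of the set, was above Dixon's 95% critical value). Normally distributed values would give about 1 in 20. That share does not hold for sets near 0, so 8 of 64 cannot be read as an excess. A set of zeros with a single other value, as for Il17a and Il9 in Th0 cells, must pass. Il17a was at 0.114 FPKM in the Th0 library M22_1, which is 1 fragment, and at 0 in the others. Il21 was at 0.0401 FPKM in the Th0 library M29_1, with the others at 0.126 to 0.136, and at 94.1 in the Th17 library M42_5, with the others at 65.9 to 70.4. Il9 was at 0.790 FPKM in the Th0 library M43_1 and at 0 in the others. Stat3 was at 56.2 FPKM in the Th0 library M29_1, with the others at 50.5 to 51.3. Foxp3 was at 42.5 FPKM in the Th17 library M43_5, with the others at 0.499 to 4.50. Socs3 was at 131 FPKM in the same library, with the others at 52.5 to 55.7. Arid5a was at 34.0 FPKM in the iTreg library M42_4, with the others at 29 to 29.7.

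Zc3h12d moved in opposite directions in the 2 comparisons, with a log2 fold change of 0.57 in Th17 and -1.12 in iTreg cells against Th0. Every Th17 library was above and every iTreg library below every Th0 library. Hif1a, which was not among the genes scanned, had the same pattern without overlap, with log2 fold changes of 0.90 and -0.55. Neither difference was tested, since the tables were scaled separately and share the Th0 libraries.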

How the results depend on the processing

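The calls of Il17a and Il17f held in all 14 alternatives of each comparison, with log2 fold changes of 3.99 to 7.51 (Il17a, Th17), 8.37 to 10.98 (Il17f, Th17), and 5.22 to 7.86 (Il17f, iTreg) and adjusted p of at most 0.0023. Both genes entered these tests through their polarized libraries alone, so the calls had to hold and add no support. The highest values came with a pseudocount of 0.1. With 1 library left out they ranged from 3.99 to 4.99, 8.37 to 8.86, and 5.22 to 5.83. The Il17f minus Il17a change was 3.87 to 4.37 with 1 library left out, with p = 0.057 (exact permutation test), the smallest that 3 against 4 libraries allow, and 3.47 with a pseudocount of 0.1. The log2 difference within Th17 libraries was 4.0 to 4.50 with a library left out. The paired fit, with the heading beginnings as a replicate block, called 3882 genes in place of 1983 in Th17 and 4170 in place of 1691 in iTreg cells. Among the neighbours and the genes named by rule from the lists, it changed the calls of Il17ra, Irf4, and Mcm3 in Th17 cells. In iTreg cells it changed those of Traf3ip2 and Tram2, and also that of Nfkbiz, which was not named by rule (limma adjusted p = 0.30, and 0.032 with the block). It changed no call of Il17a or Il17f. At an FDR of 0.01 the counts were 995 and 778. With a library left out they were 1364 to 2237 and 1140 to 1521. Among the neighbours and the genes named by rule from the lists, signs turned only for values that missed the threshold: Foxp3 in Th17 cells (-1.23 to 0.39), Tram2 in Th17 cells (-0.11 to 0.29), and Il17ra in iTreg cells (-0.18 to 0.54). The Il17a comparison of iTreg with Th0 cells and the comparison of the pair between Th17 and iTreg libraries were not run, since Il17a had no row in the iTreg table. Depth limits the Th0 levels, which rest on 0 to 2 fragments per library.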
